A study of Danio rerio with 49 samples.

Results

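Wildtype zebrafish were compared at 5 days post fertilization (dpf) and at 1 dpf, with 3 libraries of whole animals at each stage, which are 6 of the 49 samples of the series. The 6 were chosen by their labels alone. The series set maternal-zygotic mutants of rlig1 (MZrlig1), an RNA ligase gene, against wildtype fish at 6 stages and in dissected larval heads. All 6 pools are wildtype, with no treatment and no agent given. The pools held 8 animals each, came from natural spawning, and were raised at 28 °C in the dark, a condition that both stages share. Total RNA was taken with TRIzol and poly(A)-enriched, and the series' design text calls the pools of a stage biological replicates.

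A zebrafish embryo at 1 dpf still lies inside its egg envelope, is ending segmentation of the trunk, has a beating heart and lives on yolk. By 5 dpf it is a free-swimming larva that has hatched, inflated its swim bladder, sees and hunts, and has a working gut, liver and pancreas. Organ maturation in vertebrates pairs the start of specialized products, such as digestive enzymes, visual pigments and crystallins, with exit of most cells from the division cycle and loss of embryonic patterning factors.

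The 6 libraries held between 12313473 and 15471508 counts on genes. Counts above 0 were found for 23747 to 24149 genes at 5 dpf, against 22713 to 22841 genes at 1 dpf. Levels are given as CPM (counts scaled to a common library size) after TMM scaling, and fold changes as log2 of 5 dpf over 1 dpf with a standard error (SE). The SE was derived as the size of the log2 fold change over the square root of edgeR's F statistic. It is approximate where a stage has almost no counts. A gene is called when its edgeR quasi-likelihood p, adjusted over all 20624 genes tested, is under 0.05, and its change is large when a called gene moved by at least 2 on the log2 scale. Of the genes tested, 15524 were called, which is 75.3%. Called genes higher at 5 dpf numbered 8038 (39.0%) and called genes lower at 5 dpf numbered 7486 (36.3%). Large changes were 4239 higher (20.6%) and 1136 lower (5.51%). Of the 15524 called genes, 15139 had no overlap between the libraries of the stages, so a lack of overlap says little by itself. Over the genes tested, the log2 fold change had a median of 0.02, and its absolute value a median of 1.04. With 3 in 4 genes called, membership in the called set says little by itself. Each gene list below is therefore read by direction, by large changes and by its median against these values. The lists and their members were chosen with earlier results of these data known, so these readings describe the lists and test nothing. A gene with almost no counts in 1 stage passes the filter on low counts only through the other stage. Its direction was then set by the filter. The counts and medians of the photoreceptor, lens, pancreas, intestine and lymphoid lists, among others, include such genes. In whole-animal RNA, a change in the number of cells of a type cannot be told apart from a change in RNA per cell. The targeted gene of the series, RLIG1, had 10.5, 11 and 8.98 CPM at 5 dpf, against 8.69, 9.51 and 9.95 CPM at 1 dpf, and the stages overlapped.

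**Figure D1:**
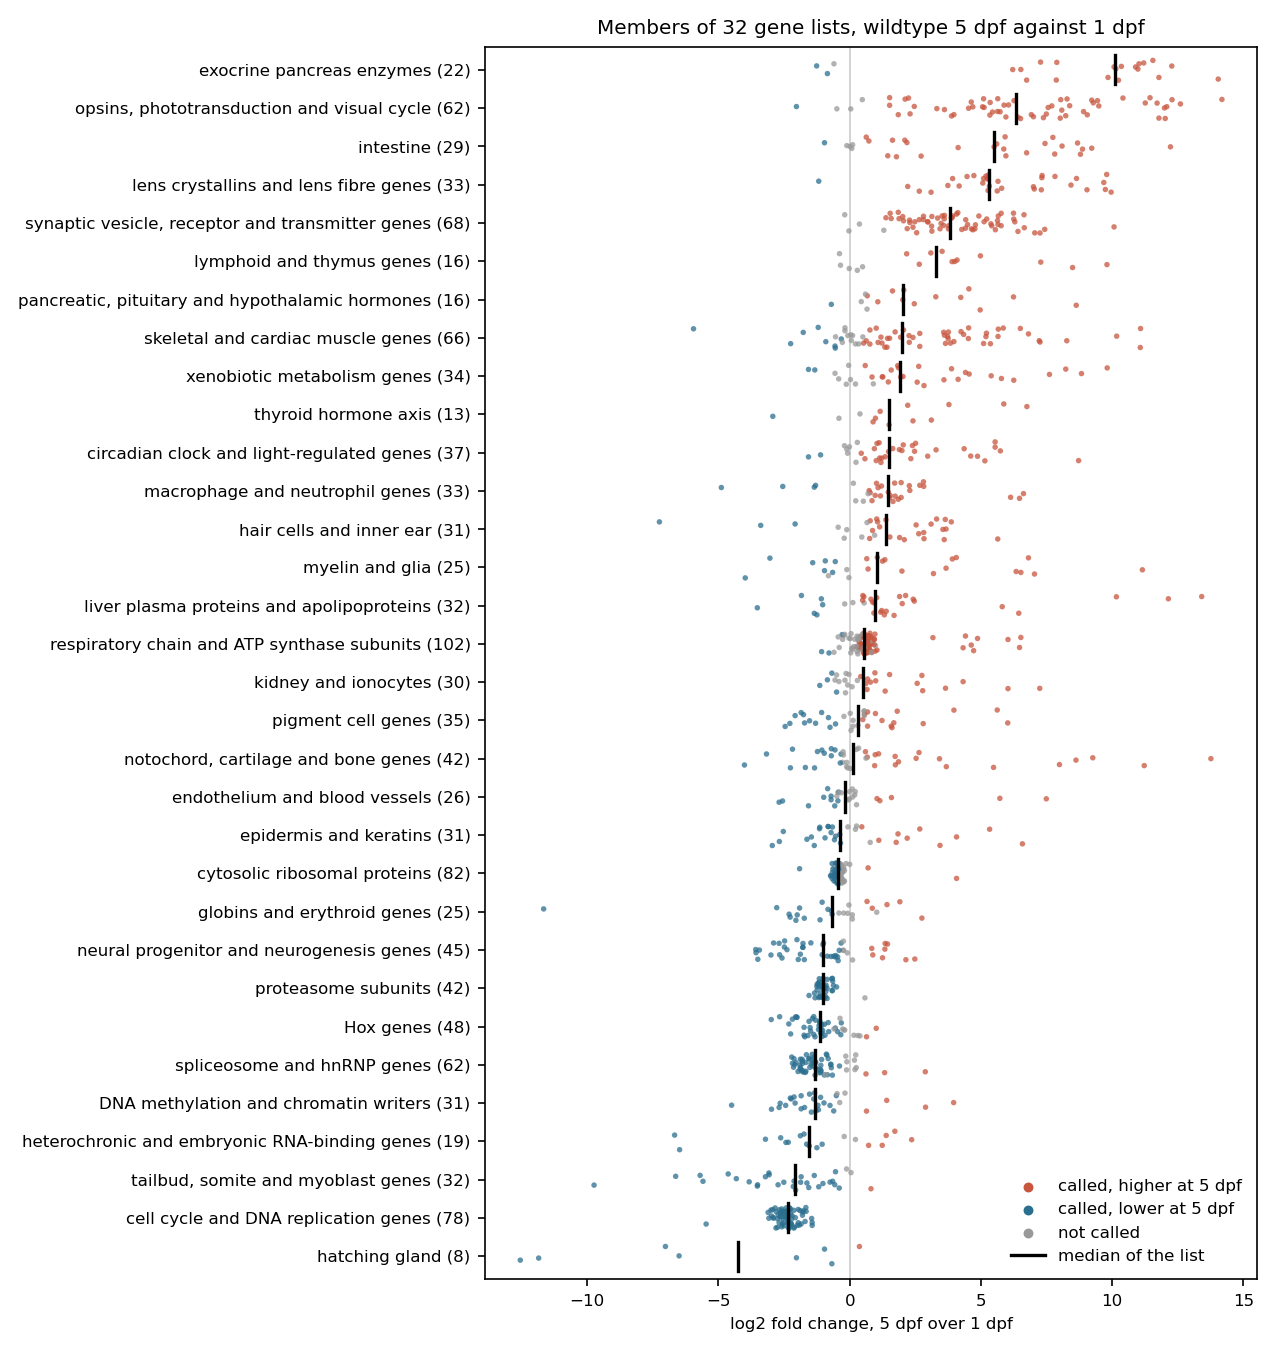
Log2 fold change (5 dpf over 1 dpf) of every tested member of 32 gene lists, 1 point per gene, with the number tested in brackets and a black bar at the list's median. Medians run from 10.11 for exocrine pancreas enzymes to -4.26 for the hatching gland, against 0.02 over all genes.

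Per length, by the authors' FPKM, the RNAs of fast muscle led the 5 dpf larva. The parvalbumin gene pvalb2, a calcium buffer that speeds relaxation of fast fibres, averaged 21514 ± 2460 FPKM at 5 dpf and 369 ± 42.4 FPKM at 1 dpf (SD, n = 3 each). The actin gene actc1b averaged 18193 ± 1971 FPKM at 5 dpf and 3739 ± 271 FPKM at 1 dpf. The other parvalbumin among the leaders, pvalb1, averaged 17254 ± 1485 FPKM at 5 dpf and 113 ± 22.9 FPKM at 1 dpf. At 1 dpf the first place was held by eef1a1l1, a translation elongation factor, with 8031 ± 102 FPKM at 5 dpf and 10800 ± 1048 FPKM at 1 dpf. The 10 genes with the most counts held 10.8% ± 0.650 of a library at 5 dpf and 7.48% ± 0.369 at 1 dpf (SD, n = 3 each).

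Most photoreceptor genes rose. Of the 64 identifiers in the list of visual pigments, cascade proteins and visual cycle enzymes, 62 passed the filter on low counts; 58 rose, 1 fell and 3 were not called. Large rises numbered 55, the list's median log2 fold change was 6.33, and it was 6.0 with the members absent from 1 dpf set at their lower bound. The list held 1.47% ± 0.0643 of the counts at 5 dpf and 0.0358% ± 0.00362 at 1 dpf. OPN1SW, a short-wavelength cone pigment, had 2530, 2461 and 2663 CPM at 5 dpf, against 0, 0 and 2.35 CPM at 1 dpf (log2 fold change 11.78, SE 0.84, edgeR adjusted p = 5.8e-06). The red cone pigment opn1lw2 had 1854, 1787 and 1997 CPM at 5 dpf, against 0, 0 and 1.49 CPM at 1 dpf (11.99, SE 0.69, edgeR adjusted p = 8.0e-07). Both pigments were far apart between stages, and at 1 dpf their counts lay in replicate c alone. That library also held 0.627 CPM of the pancreatic protease ctrb.1, which was at 0 in the other 1 dpf libraries; the part of these counts in the results was not tested, and without this library the photoreceptor list had 58 rises with a median of 6.15.

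GNAT2, the cone transducin subunit that the pigments activate, had 831, 799 and 895 CPM at 5 dpf, against 0.784, 0.763 and 2.04 CPM at 1 dpf (log2 fold change 9.49, edgeR adjusted p = 7.4e-12). ARR3 (ENSDARG00000056511), a cone arrestin that shuts off light-activated pigment, had 148, 165 and 179 CPM at 5 dpf and no count in any 1 dpf library, which makes it at least 2320-fold higher against a floor of 3 counts over the 1 dpf libraries. PRPH2 (ENSDARG00000014840), a structural protein of outer segment discs, had 195, 196 and 212 CPM at 5 dpf, against 0, 0 and 0.0784 CPM at 1 dpf, a single count, so that the ratio of 8523 has a 95% counting interval of 1529 to 336681. The fall in the list was RPE65 (ENSDARG00000094752), a copy of the retinoid isomerase gene of the visual cycle. It had 24, 18.2 and 16.3 CPM at 5 dpf, against 81.0, 68.2 and 90.3 CPM at 1 dpf (-2.03, SE 0.16, edgeR adjusted p = 5.7e-08), and the stages did not overlap. Another copy, RPE65 (ENSDARG00000007480), averaged 101 CPM at 5 dpf and 2.02 CPM at 1 dpf (5.63). The transducin beta subunit gnb1b was not called, with 161, 169 and 179.5 CPM at 5 dpf and 165, 159 and 171 CPM at 1 dpf.

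Lens genes rose nearly as a block. Of 44 identifiers 33 passed the filter; 32 rose, all of them by a large change, and 1 fell, with a median of 5.32 (5.28 with absent members at their bound). They held 1.17% ± 0.0806 of counts at 5 dpf and 0.0302% ± 0.00210 at 1 dpf. CRYBB1, a beta crystallin and so one of the packed proteins that refract light, had 1695, 1594 and 1926 CPM at 5 dpf, against 55.1, 60.6 and 39.9 CPM at 1 dpf (log2 fold change 5.07, SE 0.20, edgeR adjusted p = 4.7e-11). CRYBB1 was thus already present at 1 dpf in every library. The gamma crystallins named crygm2d10, crygm2d1 and crygm2d3 were closer to absent, with means of 491, 385 and 253 CPM at 5 dpf, against 0.579, 0.438 and 0.481 CPM at 1 dpf. LGSN, a lens protein related to glutamine synthetase, had 47.0, 54.7 and 66.0 CPM at 5 dpf, against 0.0653, 0 and 0.0784 CPM at 1 dpf, a ratio of 1183 with a 95% counting interval of 327 to 9772. The member that fell, CRYBB3, averaged 0.487 CPM at 5 dpf and 1.12 CPM at 1 dpf, and it was not called without any 1 of 5 of the 6 libraries.

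**Figure D2:**
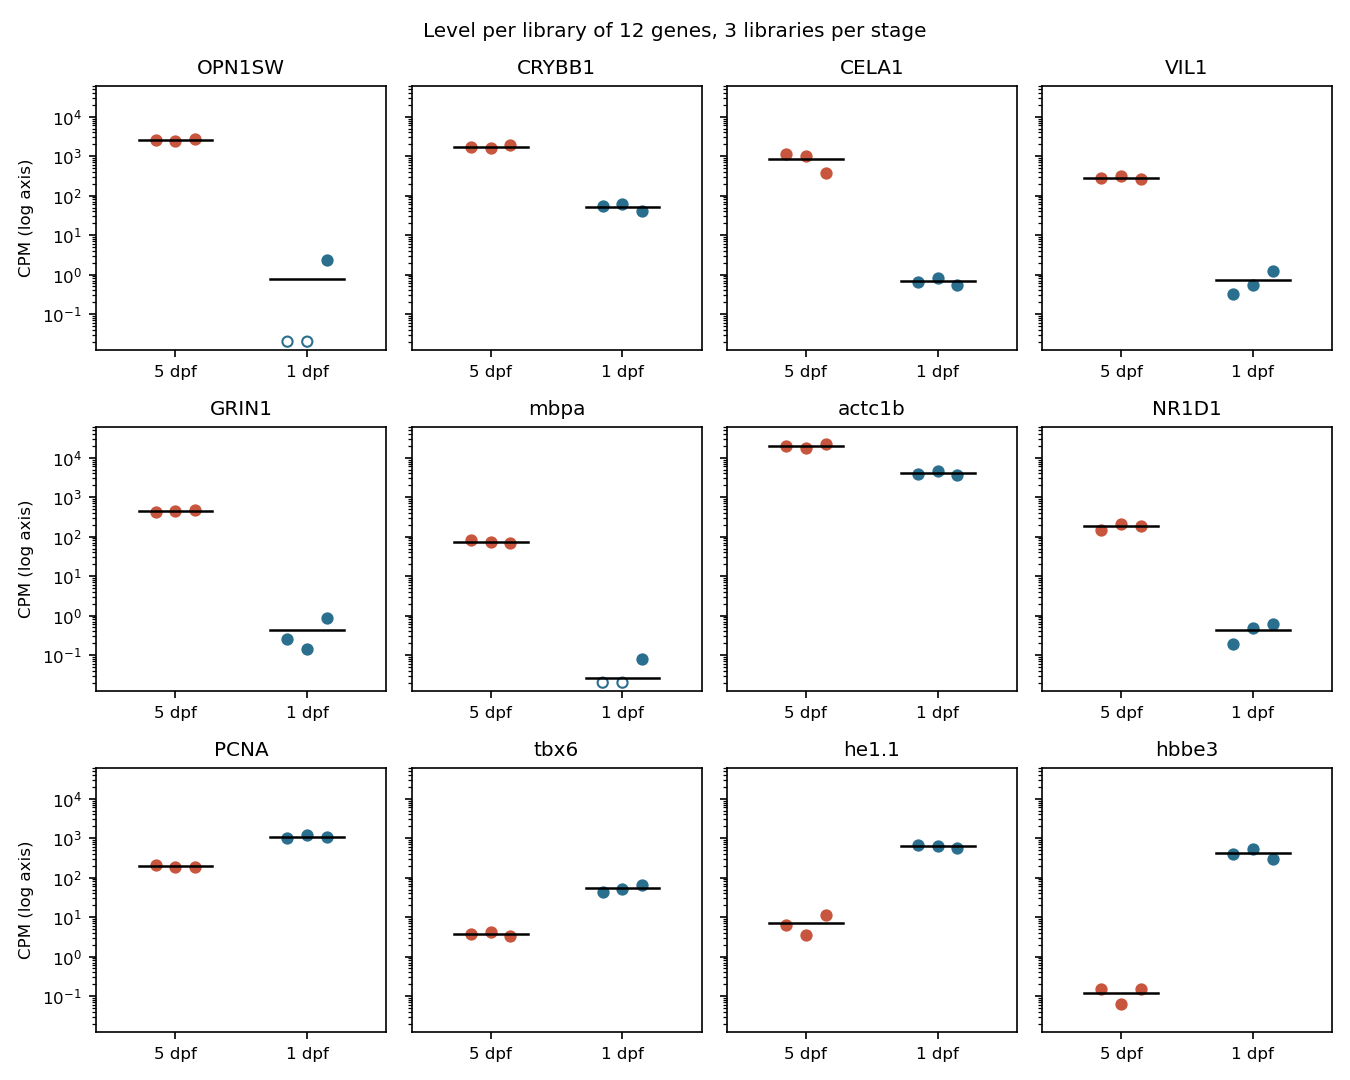
CPM of 12 genes in each library on a log axis, 5 dpf left of 1 dpf in each panel; points are replicates a, b and c from left to right, bars are stage means, and open circles at 0.02 stand for a count of 0. OPN1SW, CRYBB1, CELA1 (ENSDARG00000017314), VIL1, GRIN1 (ENSDARG00000025728), mbpa, actc1b and NR1D1 were higher at 5 dpf, and PCNA, tbx6, he1.1 and hbbe3 were lower, with no overlap between stages in any panel. Over all genes, 15139 of the 15524 called had no overlap either.

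Genes of synaptic transmission rose as well. Of 73 identifiers 68 passed the filter; 64 rose, 59 of them by a large change, none fell, and the median was 3.82. GRIN1 (ENSDARG00000025728), the obligate subunit of NMDA-type glutamate receptors, had 412, 446 and 470.0 CPM at 5 dpf, against 0.261, 0.139 and 0.862 CPM at 1 dpf (log2 fold change 10.07, SE 0.29, edgeR adjusted p = 8.4e-12). The other copy, GRIN1 (ENSDARG00000027828), started from a higher level, with a mean of 259 CPM at 5 dpf and 9.35 CPM at 1 dpf (4.79). SV2A, a synaptic vesicle protein, had 358, 438 and 419 CPM at 5 dpf, against 21.6, 20.8 and 27.5 CPM at 1 dpf (4.12, SE 0.16, edgeR adjusted p = 3.9e-11). Among enzymes and transporters of single transmitters, GAD1 (ENSDARG00000027419), which makes GABA, averaged 240 CPM at 5 dpf and 7.9 CPM at 1 dpf (4.92). SLC32A1, which loads GABA and glycine into vesicles, averaged 144 CPM at 5 dpf and 14.2 CPM at 1 dpf (3.35). CHAT, which makes acetylcholine, averaged 40.6 CPM at 5 dpf and 3.64 CPM at 1 dpf (3.48). The dopamine transporter SLC6A3 averaged 4.62 CPM at 5 dpf and 0.343 CPM at 1 dpf (3.76). The glycine transporter SLC6A9 was not called, with 208, 185 and 199 CPM at 5 dpf and 197, 192 and 284 CPM at 1 dpf.

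Myelin and glial genes moved in both directions: of 25 tested, 15 rose, 7 fell and 3 were not called, with a median of 1.05. Myelin basic protein gene mbpa, which compacts the myelin sheath, had 80.8, 71.8 and 68.3 CPM at 5 dpf, against 0, 0 and 0.0784 CPM at 1 dpf, a ratio of 3125 with a 95% counting interval of 561 to 123480. The stages did not overlap. The glial glutamate transporter SLC1A2 (ENSDARG00000102453) had 520.2, 554 and 595 CPM at 5 dpf, against 34.2, 35.2 and 41.6 CPM at 1 dpf (3.91, SE 0.15, edgeR adjusted p = 3.2e-11). A second glial transporter split by copy: SLC1A3 (ENSDARG00000104431) averaged 23.9 CPM at 5 dpf and 197 CPM at 1 dpf (-3.04), and SLC1A3 (ENSDARG00000043148) averaged 37 CPM at 5 dpf and 2.21 CPM at 1 dpf (4.06). GFAP, the radial glia filament, was not called, with 171, 169.8 and 158 CPM at 5 dpf and 163, 193 and 154 CPM at 1 dpf.

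Neural progenitor and neurogenesis genes fell in the main, with 32 of 45 lower, 8 higher, 5 not called and a median of -1.0. NOTCH3, a receptor that holds progenitors undifferentiated, had 142, 173 and 158 CPM at 5 dpf, against 617, 566 and 719 CPM at 1 dpf (log2 fold change -2.01, SE 0.14, edgeR adjusted p = 1.9e-08). The proneural factor neurog1 averaged 4.68 CPM at 5 dpf and 55.6 CPM at 1 dpf (-3.57), and the SoxB1 factor sox19a averaged 31.4 CPM at 5 dpf and 355 CPM at 1 dpf (-3.5). ZIC2 (ENSDARG00000037178), a dorsal neural factor, had 11.3, 8.03 and 9.82 CPM at 5 dpf, against 113, 129.5 and 106 CPM at 1 dpf (-3.58, SE 0.15, edgeR adjusted p = 1.1e-10). The 8 that rose were tuba1c, STMN1 (ENSDARG00000033655), ELAVL4, DPYSL3, gap43, both copies of SOX4 and DLD. ELAVL4, a neuronal RNA-binding protein, had 319.6, 304 and 342 CPM at 5 dpf, against 52.0, 58.1 and 62.9 CPM at 1 dpf (2.48, SE 0.13, edgeR adjusted p = 6.3e-10). The growth cone protein gap43 averaged 82.5 CPM at 5 dpf and 30.2 CPM at 1 dpf (1.44). The gene listed as DLD in capitals may be a mitochondrial dehydrogenase and not the Notch ligand deltaD. ELAVL3 was not called, with 279, 295 and 322 CPM at 5 dpf and 289.9, 262 and 401 CPM at 1 dpf.

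Inner ear and hair cell genes rose for 22 of 31 tested, fell for 3 and were not called for 6, with a median of 1.38. The sum over the list overlapped between stages, with means of 469.5 CPM at 5 dpf and 490.5 CPM at 1 dpf. The parvalbumin gene pvalb9, the most abundant member at 1 dpf, fell. It had 25.5, 21.3 and 19.6 CPM at 5 dpf, against 251, 212 and 234 CPM at 1 dpf (-3.39, SE 0.14, edgeR adjusted p = 8.5e-11). Its fall was larger than that of the sum, and the remaining members summed to more at 5 dpf than at 1 dpf. The calcium-binding protein gene s100t, of inner ear hair cells, had 57.3, 39.0 and 47.6 CPM at 5 dpf, against 3.07, 3.26 and 3.53 CPM at 1 dpf (3.87, SE 0.19, edgeR adjusted p = 3.7e-10). OTOF (ENSDARG00000030832), needed for release at the hair cell synapse, averaged 35.1 CPM at 5 dpf and 2.90 CPM at 1 dpf (3.60). The otolith matrix gene oc90, which seeds the ear stones early, had 0.369, 0.690 and 0.997 CPM at 5 dpf, against 105, 100.1 and 109 CPM at 1 dpf (-7.25, SE 0.21, edgeR adjusted p = 4.6e-12). A second otolith matrix gene, stm, rose, with 107, 79.5 and 87.8 CPM at 5 dpf, against 44.1, 46.3 and 71.6 CPM at 1 dpf (0.76, SE 0.18, edgeR adjusted p = 0.00213).

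Exocrine pancreas enzymes had the largest median of the 32 lists, 10.11, the same with absent members at their bound. Of 27 identifiers 22 passed the filter; 19 rose, each by a large change, 2 fell and 1 was not called. CELA1 (ENSDARG00000017314), an elastase, had 1158, 983 and 373 CPM at 5 dpf, against 0.653, 0.833 and 0.549 CPM at 1 dpf (log2 fold change 10.24, SE 0.60, edgeR adjusted p = 8.7e-07). The chymotrypsinogen gene ctrb.2 had 169, 209.6 and 67.3 CPM at 5 dpf and no count at 1 dpf, which makes it at least 2103-fold higher. The list summed to 7739, 6745 and 2612 CPM in replicates a, b and c at 5 dpf, against 8.10, 8.26 and 13.8 CPM in those of 1 dpf. Replicate c of 5 dpf thus lay well below the others, although far above every 1 dpf library, and without it the list had 20 rises and a median of 10.45. The share of counts was 0.574% ± 0.274 at 5 dpf and 0.00101% ± 0.000367 at 1 dpf. PTF1A, the transcription factor that sets acinar fate, was not called, with 1.18, 1.25 and 0.997 CPM at 5 dpf and 1.83, 1.46 and 1.96 CPM at 1 dpf. One of the falls, amy2al1, averaged 1.3 CPM at 5 dpf and 2.35 CPM at 1 dpf, and the number of falls was 0 without any 1 of 4 of the 6 libraries.

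Of 29 tested intestinal genes, 24 rose, 1 fell and 4 were not called, and the median was 5.50, or 4.73 with absent members at their bound. VIL1, villin of the brush border, had 277, 322 and 260.1 CPM at 5 dpf, against 0.327, 0.555 and 1.25 CPM at 1 dpf (8.68, SE 0.27, edgeR adjusted p = 1.5e-11). The meprin protease gene mep1a.2 had 42.5, 44.1 and 39.7 CPM at 5 dpf and no count at 1 dpf, so it was at least 596-fold higher. The peptide transporter SLC15A1 (ENSDARG00000044528) averaged 59 CPM at 5 dpf and 0.113 CPM at 1 dpf (8.87). The fall was foxa3, an endoderm factor, with 13.7, 11.3 and 9.82 CPM at 5 dpf, against 25.4, 21.2 and 21.3 CPM at 1 dpf (-0.96, SE 0.17, edgeR adjusted p = 0.000129). The apolipoprotein gene apoa4b.1 had 386, 318 and 286 CPM at 5 dpf and 369, 275 and 271 CPM at 1 dpf, and was not called. FABP2, an enterocyte fatty acid binding protein, had 518, 544 and 429 CPM at 5 dpf, against 383, 354 and 161 CPM at 1 dpf (0.73, SE 0.27, edgeR adjusted p = 0.0334), a call that was lost when any 1 of 3 libraries was left out (5 dpf a or b, or 1 dpf b) and with DESeq2 (adjusted p = 0.0583).

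The liver list rose by less, for 23 of 32 tested, with 6 lower, 3 not called and a median of 0.98; its share of counts was 1.4% ± 0.29 at 5 dpf and 1.4% ± 0.24 at 1 dpf. Apolipoproteins that load lipid particles were among the falls. The gene apobb.1, of an apolipoprotein B that is also made around the yolk, had 2209, 1730 and 1336 CPM at 5 dpf, against 3812, 2273 and 4705 CPM at 1 dpf (log2 fold change -1.03, SE 0.26, edgeR adjusted p = 0.003). A neighbour in name, apobb.2, averaged 9.01 ± 1.22 CPM at 5 dpf and 103 ± 30.9 CPM at 1 dpf (SD, n = 3 each), and it fell (-3.52, SE 0.22, edgeR adjusted p = 2.3e-08). Neither overlapped between stages, and apobb.1 lost its call with all wildtype stages in 1 edgeR fit (adjusted p = 0.13). The liver fatty acid binding protein fabp10a had 147, 145 and 144 CPM at 5 dpf, against 0, 0 and 0.0784 CPM at 1 dpf, a ratio of 6188 with a 95% counting interval of 1110 to 244436. The complement gene c3a.2 had 68.6, 106 and 113 CPM at 5 dpf and no count at 1 dpf, so it was at least 1356-fold higher. CYP7A1, the rate-limiting enzyme of bile acid synthesis, had 54.4, 50.1 and 49.6 CPM at 5 dpf and no count at 1 dpf, at least 727-fold higher.

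Genes of xenobiotic metabolism rose for 25 of 34 tested, fell for 2 and were not called for 7, with a median of 1.90. The steroid and drug hydroxylase gene cyp3a65 had 186, 284 and 189 CPM at 5 dpf, against 0.196, 0.208 and 0.314 CPM at 1 dpf (9.81, SE 0.29, edgeR adjusted p = 8.1e-12). The efflux pump gene abcc2 had 176, 248 and 173 CPM at 5 dpf, against 41.2, 26.4 and 33.2 CPM at 1 dpf (2.57, SE 0.19, edgeR adjusted p = 5.7e-08). The dioxin receptor ahr2 averaged 108 CPM at 5 dpf and 45 CPM at 1 dpf (1.26), and the pregnane receptor NR1I2 averaged 10.3 CPM at 5 dpf and 10.6 CPM at 1 dpf, without a call. Of the falls, fmo5, a flavin monooxygenase gene, had 23.4, 25.9 and 26.0 CPM at 5 dpf, against 67.4, 65.2 and 56.7 CPM at 1 dpf (-1.33, SE 0.12, edgeR adjusted p = 3.0e-07).

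Of 26 hormone and islet identifiers 16 passed the filter; 12 rose, 1 fell and 3 were not called, with a median of 2.04. Growth hormone gh1 had 15, 15.4 and 7.59 CPM at 5 dpf, against 0.0653, 0 and 0 CPM at 1 dpf, a ratio of 550.2 with a 95% counting interval of 98.3 to 21769. Insulin, ins, had 22.3, 13.3 and 7.98 CPM at 5 dpf, against 3.53, 4.79 and 2.04 CPM at 1 dpf (log2 fold change 2.06, SE 0.39, edgeR adjusted p = 0.000532). The pituitary precursor POMC averaged 6.03 CPM at 5 dpf and 0.0784 CPM at 1 dpf (6.24). The feeding peptide agrp, the fall, had 3.76, 3.64 and 3.07 CPM at 5 dpf, against 4.05, 6.73 and 6.27 CPM at 1 dpf (-0.70, SE 0.26, edgeR adjusted p = 0.025), and lost its call without any 1 of 3 libraries (5 dpf c, or 1 dpf b or c). In the thyroid axis 10 of 13 tested rose, 1 fell and 2 were not called, with a median of 1.5. TG, the precursor protein of thyroid hormone, averaged 8.52 CPM at 5 dpf and 0.981 CPM at 1 dpf (3.11). The fall was duox, an oxidase gene whose product supplies hydrogen peroxide for hormone synthesis, with 3.32, 2.64 and 4.14 CPM at 5 dpf, against 28.4, 23.2 and 25.0 CPM at 1 dpf (-2.93, SE 0.20, edgeR adjusted p = 1.0e-08), without overlap. KLF9, a factor induced by thyroid hormone and by glucocorticoids in vertebrates, had 29.7, 50.1 and 36.7 CPM at 5 dpf, against 0.261, 0.486 and 0.314 CPM at 1 dpf (6.75, SE 0.30, edgeR adjusted p = 2.0e-10).

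Kidney and ionocyte genes rose for 16 of 30, fell for 4 and were not called for 10, with a median of 0.52. The chloride cotransporter slc12a10.2, of skin ionocytes that take up salt, had 36.6, 26.9 and 37.1 CPM at 5 dpf, against 0, 0.278 and 0.392 CPM at 1 dpf (7.24, SE 0.38, edgeR adjusted p = 1.7e-09). TRPV6, the calcium channel of ionocytes, averaged 47.3 CPM at 5 dpf and 2.34 CPM at 1 dpf (4.32). The largest fall was SLC20A1 (ENSDARG00000010641), a phosphate transporter, with 159.7, 148 and 165 CPM at 5 dpf, against 341, 341 and 362 CPM at 1 dpf (-1.14, SE 0.12, edgeR adjusted p = 8.2e-07). The kidney patterning factors PAX2 (2 copies), PAX8, WT1 and wt1b were not called: PAX8 had 2.51, 3.2 and 1.38 CPM at 5 dpf and 4.18, 3.40 and 1.88 CPM at 1 dpf.

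Muscle genes held 11.6% ± 0.687 of counts at 5 dpf and 3.11% ± 0.0346 at 1 dpf (SD, n = 3 each), and 11.9% of summed FPKM at 5 dpf and 2.06% at 1 dpf. Of 66 tested, 47 rose, 33 of them by a large change, 8 fell and 11 were not called, with a median of 1.99. The actin gene actc1b had 19466, 17303 and 22221 CPM at 5 dpf, against 3915, 4709 and 3688 CPM at 1 dpf (log2 fold change 2.26, SE 0.19, edgeR adjusted p = 8.7e-08). The fast myosin gene myhz1.1 had 15441, 15543 and 17891 CPM at 5 dpf, against 2526, 2920 and 2249 CPM at 1 dpf (2.67, SE 0.18, edgeR adjusted p = 1.2e-08). Neither overlapped between stages, and both lost their call when all 6 wildtype stages shared 1 edgeR fit (adjusted p = 0.212 for actc1b and 0.178 for myhz1.1). A myosin of the same cluster, myhz1.3, was not called, with 2361, 2246 and 2763 CPM at 5 dpf and 2839, 3227 and 2257 CPM at 1 dpf.

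Within troponin, the calcium switch of the sarcomere, subunit genes went opposite ways. The gene tnnt2c had 15.5, 12 and 14.1 CPM at 5 dpf, against 808, 952 and 812 CPM at 1 dpf (-5.95, SE 0.17, edgeR adjusted p = 4.6e-12), 61.7-fold lower by the ratio of means. TNNT3 (ENSDARG00000068457) averaged 3597 CPM at 5 dpf and 71.4 CPM at 1 dpf (5.65). Of the 6 identifiers named TNNI2, 5 rose and 1 fell. TNNI2 (ENSDARG00000029995) had 297, 235 and 293 CPM at 5 dpf, against 0, 0 and 0.392 CPM at 1 dpf (11.08, SE 0.38, edgeR adjusted p = 1.4e-10), while TNNI2 (ENSDARG00000035958) averaged 123 CPM at 5 dpf and 588 CPM at 1 dpf (-2.25). The calcium pump gene atp2a1l averaged 1439 CPM at 5 dpf and 0.679 CPM at 1 dpf (11.07), whereas atp2a1 had 8409, 8862 and 9683 CPM at 5 dpf, against 4035, 4448 and 4294 CPM at 1 dpf (1.08, SE 0.16, edgeR adjusted p = 2.8e-05). The slow myosin gene smyhc1 averaged 1022 CPM at 5 dpf and 1922 CPM at 1 dpf (-0.91), and smyhc2 averaged 129 CPM at 5 dpf and 3.51 CPM at 1 dpf (5.19).

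**Figure D3:**
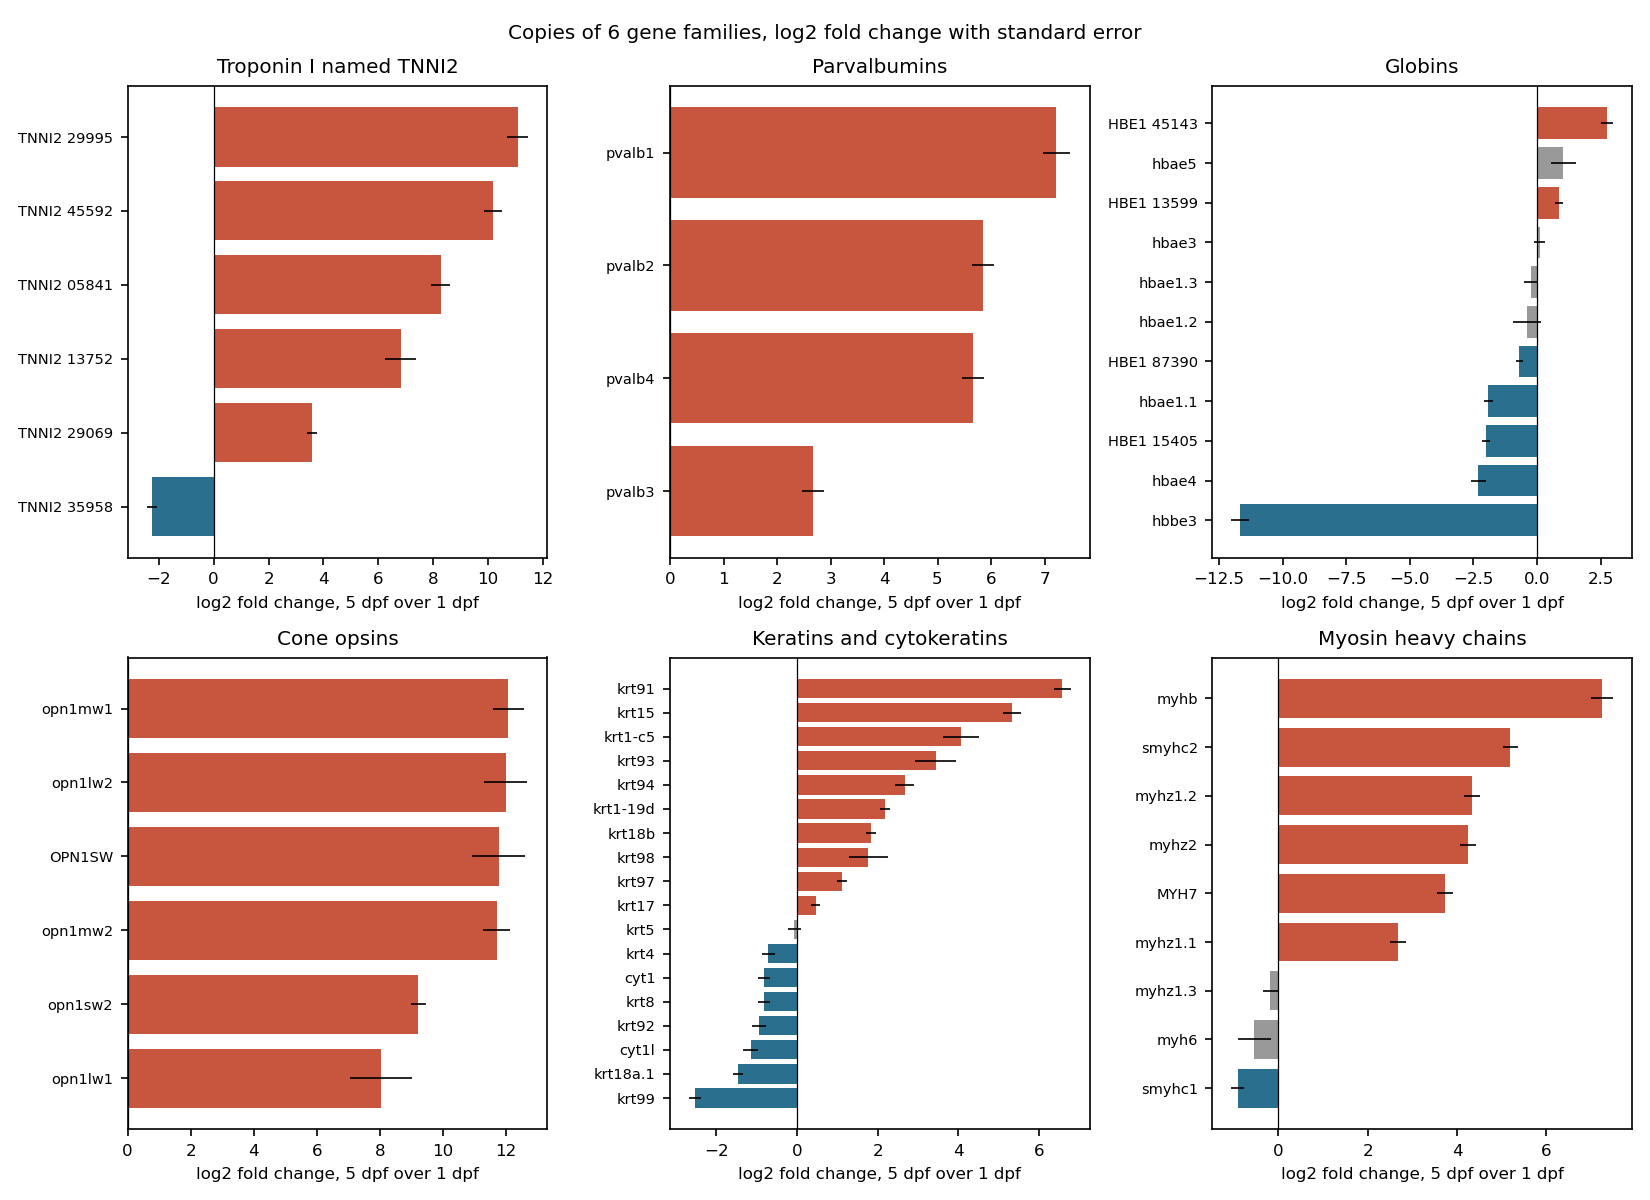
Log2 fold change (5 dpf over 1 dpf) with standard error for the tested copies of 6 gene families, red for called higher, blue for called lower and grey for not called; names shared by several identifiers carry the last 5 digits of theirs. Troponin I copies named TNNI2, globins, keratins and myosin heavy chains hold both rises and falls, while the 4 muscle parvalbumins and the 6 cone opsins tested hold rises alone.

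Globin and erythroid genes fell for 13 of 25 tested, rose for 5 and were not called for 7, with a median of -0.67. The embryonic globin gene hbbe3 had 0.147, 0.0627 and 0.153 CPM at 5 dpf, against 387, 538 and 305 CPM at 1 dpf (log2 fold change -11.66, SE 0.35, edgeR adjusted p = 1.9e-11), 3385-fold lower by the ratio of means. HBE1 (ENSDARG00000045143), a beta-type globin in the same family, had 221, 139.5 and 189 CPM at 5 dpf, against 24.7, 36.7 and 20.3 CPM at 1 dpf (2.75, SE 0.23, edgeR adjusted p = 7.4e-07). HBE1 (ENSDARG00000113599) had 816, 647 and 731 CPM at 5 dpf, against 356, 496 and 354 CPM at 1 dpf (0.86, SE 0.16, edgeR adjusted p = 0.000249). Reads of such near-identical globin copies may be divided between identifiers, so their single values are uncertain. The alpha-type globin hbae1.2 varied within stages, with 314, 61.8 and 298 CPM at 5 dpf and 397, 206 and 292 CPM at 1 dpf, and was not called. The 3 enzymes of haem synthesis in the list, alas2, UROD and FECH, fell: UROD averaged 9.63 CPM at 5 dpf and 66.4 CPM at 1 dpf (-2.78), and alas2 averaged 35.4 CPM at 5 dpf and 77.4 CPM at 1 dpf (-1.13).

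Skeletal genes gave 18 higher (42.9%), 14 lower (33.3%) and 10 not called of 42 tested. These shares lay near the 39.0% higher and 36.3% lower over all genes tested. The median was 0.14, and it was -0.09 without 5 dpf replicate a. MATN3 (ENSDARG00000069245), a cartilage matrix adaptor, had 118, 117 and 132 CPM at 5 dpf and no count at 1 dpf, so it was at least 1734-fold higher. MATN1 averaged 104 CPM at 5 dpf and 0.422 CPM at 1 dpf (7.99). The fibrillar collagen gene COL1A1 had 1720, 1480 and 1740 CPM at 5 dpf, against 556, 512 and 423 CPM at 1 dpf (1.73, SE 0.15, edgeR adjusted p = 2.0e-07). COL2A1 (ENSDARG00000069093), of notochord sheath and cartilage, was not called, with 1596, 1360 and 1239 CPM at 5 dpf and 1762, 1803 and 1504 CPM at 1 dpf. The notochord sheath collagen col8a1a had 16.3, 13.2 and 16.5 CPM at 5 dpf, against 165, 133 and 115 CPM at 1 dpf (-3.17, SE 0.16, edgeR adjusted p = 4.9e-10), and the notochord factor noto averaged 0.205 CPM at 5 dpf and 3.50 CPM at 1 dpf (-4.01).

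Epidermal genes fell for 17 of 31 tested, rose for 10 and were not called for 4, with a median of -0.38. The keratin krt4, of the outer skin layer, had 8512, 6699 and 8592 CPM at 5 dpf, against 12598, 14211 and 12135 CPM at 1 dpf (log2 fold change -0.71, SE 0.17, edgeR adjusted p = 0.00212), with adjusted p = 0.347 when all wildtype stages shared the edgeR fit. The keratin krt91 had 2047, 1664 and 2062 CPM at 5 dpf, against 22.9, 21.5 and 15.8 CPM at 1 dpf (6.58, SE 0.21, edgeR adjusted p = 8.6e-12). The largest fall of the list was anxa1c, an annexin gene, with 67.7, 59.9 and 67.6 CPM at 5 dpf, against 469, 560.0 and 479 CPM at 1 dpf (-2.95, SE 0.14, edgeR adjusted p = 2.5e-10). The keratin krt5 was not called, with 3369, 2713 and 3245 CPM at 5 dpf and 3193, 3673 and 2953 CPM at 1 dpf. Pigment cell genes gave 14 rises, 12 falls and 9 without a call of 35 tested, with a median of 0.31, while the list summed to 1111, 1187 and 1390 CPM at 5 dpf, against 1592, 1515 and 1410 CPM at 1 dpf. The largest fall was MITF (ENSDARG00000003732), a pigment cell factor, with means of 2.54 CPM at 5 dpf and 14.1 CPM at 1 dpf (-2.46). Purine synthesis enzymes, which iridophores use for their guanine crystals and dividing cells for nucleotides, fell for PAICS, ATIC and GART: PAICS had 190.5, 139 and 148 CPM at 5 dpf, against 407, 318 and 280.4 CPM at 1 dpf (-1.07, SE 0.16, edgeR adjusted p = 4.0e-05). The gene listed as ALK in capitals, which may not be the iridophore receptor, had 12.6, 13.9 and 11.8 CPM at 5 dpf, against 0.131, 0.278 and 0.157 CPM at 1 dpf (6.02, SE 0.32, edgeR adjusted p = 1.0e-09).

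Endothelial genes had a median of -0.19, with 5 higher (19.2%), 10 lower (38.5%) and 11 not called of 26. The share lower lay near the 36.3% over all genes tested, and the share higher was below the 39.0% over all genes. The vascular receptor kdrl was not called and averaged 38.7 CPM at 5 dpf and 38.8 CPM at 1 dpf. The scavenger receptor stab2 had 11.1, 12 and 13.4 CPM at 5 dpf, against 76.8, 75.1 and 64.6 CPM at 1 dpf (-2.56, SE 0.14, edgeR adjusted p = 9.3e-10). CLDN5 (ENSDARG00000043716), a tight junction protein, averaged 10.4 ± 1.47 CPM at 5 dpf and 67.6 ± 7.74 CPM at 1 dpf (SD, n = 3 each), and it fell (-2.69, SE 0.15, edgeR adjusted p = 1.6e-09). The fenestral diaphragm gene plvapa had 9.21, 7.78 and 6.83 CPM at 5 dpf, against 0.131, 0.0694 and 0.235 CPM at 1 dpf (5.72, SE 0.39, edgeR adjusted p = 1.3e-08).

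Of 33 tested macrophage and neutrophil genes 25 rose, 4 fell and 4 were not called, with a median of 1.47. The sum over the list went the other way, with 909.9, 690.0 and 671 CPM at 5 dpf, against 1279, 1216 and 1005 CPM at 1 dpf, without overlap. The most abundant member, the apolipoprotein gene apoc1, fell, with 472, 253 and 265 CPM at 5 dpf, against 906, 890.1 and 733 CPM at 1 dpf (-1.35, SE 0.22, edgeR adjusted p = 0.000126, or 0.0682 with all wildtype stages in 1 fit). Its mean was 330.1 CPM at 5 dpf and 843 CPM at 1 dpf, and that of the sum was 757 CPM and 1166 CPM. The fall of apoc1 was larger than that of the sum, so the direction of the sum rested on this gene. The remaining members summed to more at 5 dpf than at 1 dpf. The other falls were ctss2.1 and both copies of the chemokine receptor gene CXCR4. The largest rise was MPEG1 (ENSDARG00000043093), a pore-forming protein of macrophages, with means of 5.50 CPM at 5 dpf and 0.0463 CPM at 1 dpf. Lysozyme, lyz, had 36.1, 30.9 and 34.1 CPM at 5 dpf, against 6.47, 7.29 and 1.88 CPM at 1 dpf (log2 fold change 2.67, SE 0.34, edgeR adjusted p = 4.9e-05). The myeloid factor CEBPB had 94.1, 92.4 and 91.9 CPM at 5 dpf, against 31.4, 35.0 and 21.9 CPM at 1 dpf (1.65, SE 0.15, edgeR adjusted p = 2.7e-07). The cathepsin gene ctss2.1 ran against the list, with 4.57, 3.70 and 4.68 CPM at 5 dpf, against 168, 112 and 103 CPM at 1 dpf (-4.89, SE 0.21, edgeR adjusted p = 4.1e-10). Of 25 lymphoid and thymus identifiers 16 passed the filter. Of these, 11 rose, none fell and 5 were not called, and the median was 3.30. Most of the 11, such as ccl25a, foxn1 and both copies of CCR9, were near 0 at 1 dpf. They passed the filter through 5 dpf alone, which set their direction. The rises also well counted at 1 dpf were RAG1, bcl11ba and mhc1zba. The thymic chemokine gene ccl25a had 29.0, 26.4 and 31.1 CPM at 5 dpf, against 0, 0.0694 and 0 CPM at 1 dpf, a ratio of 1217 with a 95% counting interval of 218 to 48114. foxn1, the factor of thymic epithelium, averaged 1.76 CPM at 5 dpf and 0.0493 CPM at 1 dpf (4.98). The receptor gene recombinase RAG1 averaged 11.9 CPM at 5 dpf and 1.39 CPM at 1 dpf (3.09). RAG2 was not called, with means of 1.94 CPM at 5 dpf and 2.55 CPM at 1 dpf (-0.39). The most abundant member, TOX, was not called either and averaged 130.1 CPM at 5 dpf and 132 CPM at 1 dpf. The others without a call were RUNX3, IKZF1 and b2m.

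The cell cycle list fell without exception. All 78 members passed the filter, all 78 were called lower, 64 by a large change, and the median was -2.37. Summed over the list, the libraries held 2896, 2835 and 2864 CPM at 5 dpf, against 14854, 16235 and 14614 CPM at 1 dpf. PCNA, the sliding clamp of DNA polymerase, had 215, 185 and 189 CPM at 5 dpf, against 999, 1209 and 1050 CPM at 1 dpf (log2 fold change -2.47, SE 0.15, edgeR adjusted p = 2.6e-09). The proliferation marker mki67 had 159, 157 and 162 CPM at 5 dpf, against 1023, 1017 and 1309 CPM at 1 dpf (-2.81, SE 0.15, edgeR adjusted p = 1.1e-09). The deepest fall of the list, RRM2 (ENSDARG00000078069), a copy of the subunit that makes DNA precursors, had 0.0737, 0.502 and 0 CPM at 5 dpf, against 8.10, 11.2 and 9.80 CPM at 1 dpf (-5.47, SE 0.50, edgeR adjusted p = 3.9e-07).

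Chromatin genes fell alongside, for 24 of 31 tested, with 4 higher, 3 not called and a median of -1.34. The de novo DNA methyltransferase gene dnmt3bb.2 had 5.45, 8.28 and 6.06 CPM at 5 dpf, against 138, 138 and 176 CPM at 1 dpf (-4.50, SE 0.18, edgeR adjusted p = 5.7e-11). HDAC1, a histone deacetylase, had 252, 233 and 242 CPM at 5 dpf, against 696, 758 and 644 CPM at 1 dpf (-1.53, SE 0.13, edgeR adjusted p = 1.2e-07). Some gene pairs moved oppositely. SMARCA4 (ENSDARG00000077226), a chromatin remodelling ATPase, had 236, 259.8 and 258 CPM at 5 dpf, against 688, 715 and 552 CPM at 1 dpf (-1.37, SE 0.14, edgeR adjusted p = 7.4e-07). SMARCA4 (ENSDARG00000104339) had 37.4, 47.7 and 42.7 CPM at 5 dpf, against 2.81, 2.84 and 2.51 CPM at 1 dpf (3.96, SE 0.17, edgeR adjusted p = 1.4e-10). Of the Polycomb methyltransferases, EZH2 averaged 17.9 CPM at 5 dpf and 64.9 CPM at 1 dpf (-1.85), and ezh1 averaged 34.2 CPM at 5 dpf and 4.6 CPM at 1 dpf (2.89).

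Among embryonic RNA-binding, high-mobility-group and MARCKS family genes 12 of 19 fell, 5 rose and 2 were not called, with a median of -1.54. The 2 without a call, marcksl1a and marcksl1b, are MARCKS family members. LIN28A (ENSDARG00000004328), which blocks maturation of let-7 microRNAs, had 0.0737, 0.125 and 0.384 CPM at 5 dpf, against 24.1, 19.3 and 16.6 CPM at 1 dpf (log2 fold change -6.67, SE 0.36, edgeR adjusted p = 9.7e-10). The insulin-like growth factor mRNA binding gene igf2bp1 had 249, 244 and 251 CPM at 5 dpf, against 1194, 1105 and 1467 CPM at 1 dpf (-2.34, SE 0.15, edgeR adjusted p = 6.5e-09). The chromatin protein gene hmga1a had 1115, 1042 and 1151 CPM at 5 dpf, against 6330, 7144 and 6946 CPM at 1 dpf (-2.63, SE 0.16, edgeR adjusted p = 3.5e-09). Its pair hmga1b rose, with 32.4, 34.8 and 37.5 CPM at 5 dpf, against 4.44, 6.38 and 9.64 CPM at 1 dpf (2.36, SE 0.22, edgeR adjusted p = 5.7e-07).

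Axial patterning genes fell too. Of 48 Hox genes, which assign identity along the body axis, 38 fell, 2 rose and 8 were not called, with a median of -1.12. HOXB3 had 66.8, 63.6 and 64.1 CPM at 5 dpf, against 131, 143 and 147 CPM at 1 dpf (-1.11, SE 0.11, edgeR adjusted p = 5.4e-07). The anterior gene hoxb1a had 1.33, 1.00 and 1.99 CPM at 5 dpf, against 10.8, 12.9 and 10.3 CPM at 1 dpf (-2.99, SE 0.27, edgeR adjusted p = 2.0e-07). HOXB5 (ENSDARG00000013057) rose, with 30.6, 24.4 and 25.6 CPM at 5 dpf, against 16.7, 18.2 and 16.6 CPM at 1 dpf (0.64, SE 0.14, edgeR adjusted p = 0.00106). Of 32 tested tailbud, somite and myoblast genes 29 fell, 17 by a large change, 1 rose and 2 were not called, with a median of -2.09. The segmentation clock gene her1 had no count at 5 dpf and 5.82, 7.63 and 9.17 CPM at 1 dpf, at least 107-fold lower. The mesoderm factor tbx6 averaged 3.77 CPM at 5 dpf and 54.3 CPM at 1 dpf (-3.83). The muscle differentiation factor MYOG had 23.8, 22.8 and 23.6 CPM at 5 dpf, against 91.9, 99.4 and 64.7 CPM at 1 dpf (-1.87, SE 0.16, edgeR adjusted p = 9.0e-08).

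The hatching gland list had the lowest median, -4.26, with 7 of 8 members lower and 1 higher. The hatching enzyme gene he1.1, whose protease digests the egg envelope, had 6.41, 3.45 and 11.3 CPM at 5 dpf, against 688, 644 and 563 CPM at 1 dpf (log2 fold change -6.50, SE 0.36, edgeR adjusted p = 9.5e-08). The cathepsin gene ctslb had 0.0737, 0 and 0 CPM at 5 dpf, against 168, 214 and 199.9 CPM at 1 dpf; the single count at 5 dpf gives a ratio of 8219 with a 95% counting interval of 1475 to 324691. Another gland protease, he1.3, had no count at 5 dpf and 34.8, 30.0 and 32.9 CPM at 1 dpf, at least 462-fold lower. XBP1 and CD63, general secretory and vesicle genes, moved by -0.68 and 0.37.

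Of 42 tested proteasome subunits 41 fell, none by a large change, with a median of -1.02. PSMD1 had 166, 155 and 162 CPM at 5 dpf, against 315, 346 and 253 CPM at 1 dpf (-0.92, SE 0.14, edgeR adjusted p = 2.7e-05). The largest fall of the list, the core subunit PSMA5, averaged 58.2 CPM at 5 dpf and 171 CPM at 1 dpf (-1.55). Of 62 spliceosome and hnRNP genes 51 fell, 6 of them by a large change, 3 rose and 8 were not called, with a median of -1.31. The largest fall was SNRPG, a core snRNP protein, with means of 28.8 CPM at 5 dpf and 133 CPM at 1 dpf (-2.21), and the largest rise was SRSF7, a splicing regulator, with 7.25 CPM at 5 dpf and 0.971 CPM at 1 dpf (2.88). HNRNPAB (ENSDARG00000007960) had 583, 475 and 578 CPM at 5 dpf, against 1936, 2184 and 1105 CPM at 1 dpf (-1.67, SE 0.22, edgeR adjusted p = 1.6e-05), with 1 dpf replicate c the lowest of its stage. Respiratory chain and ATP synthase genes rose for 69 of 102 tested, 9 of them by a large change, fell for 3 and were not called for 30, with a median of 0.56; with all wildtype stages in 1 fit 35 were called higher. ATP5F1B, the catalytic subunit of ATP synthase, had 1846, 1766 and 1785 CPM at 5 dpf, against 902, 1084 and 638 CPM at 1 dpf (1.04, SE 0.18, edgeR adjusted p = 0.000131).

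Cytosolic ribosomal protein genes were lower for 48 of 82 tested and higher for 2, with 32 not called and a median of -0.43. The list summed to 76168, 69258 and 72073 CPM at 5 dpf, against 92601, 119387 and 79409 CPM at 1 dpf. The stages did not overlap in this sum, and the 1 dpf libraries were spread more widely. RPLP0, a stalk protein, had 3221, 3090 and 3193 CPM at 5 dpf, against 4307, 5533 and 4160 CPM at 1 dpf (log2 fold change -0.56, SE 0.16, edgeR adjusted p = 0.00658). RPS2 had 3257, 3126 and 3196 CPM at 5 dpf and 3859, 4822 and 2310 CPM at 1 dpf, without a call. The number of ribosomal genes called lower rested on single libraries: it was 78 without 1 dpf replicate c, 28 without 1 dpf replicate b, 18 without 5 dpf replicate b and 17 without 5 dpf replicate c. The median lay between -0.56 and -0.28 over the 6 fits that each left out 1 library.

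Clock and light-regulated genes rose for 29 of 37, 15 of them by a large change, with 2 lower, 6 not called and a median of 1.48, in animals raised in the dark at both stages. NR1D1, a repressor of the clock loop, had 149, 212 and 188 CPM at 5 dpf, against 0.196, 0.486 and 0.627 CPM at 1 dpf (log2 fold change 8.72, SE 0.26, edgeR adjusted p = 7.0e-12). The output factor gene dbpa, of the PAR bZIP family, rose, with a mean of 59.9 CPM at 5 dpf and 1.15 CPM at 1 dpf (5.74). PER1 (ENSDARG00000056885), a core repressor, averaged 58.6 CPM at 5 dpf and 1.25 CPM at 1 dpf (5.54). The activator bmal2 fell, with 14.4, 16.8 and 13.6 CPM at 5 dpf, against 45.2, 39.9 and 48.4 CPM at 1 dpf (-1.57, SE 0.14, edgeR adjusted p = 2.3e-07). The light-induced PER2 was not called and averaged 8.93 CPM at 5 dpf and 10.3 CPM at 1 dpf. The time of day at which each stage was collected is not given in the sources used here, so hour and stage cannot be told apart for these genes.

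Beyond the lists, the 10 largest rises among called genes with at least 20 CPM and no overlap included gstp1.1, a glutathione transferase, with 69.8, 75.2 and 55.2 CPM at 5 dpf and no count at 1 dpf, at least 945-fold higher. The crystallin-related gene crybgx had 210.3, 205 and 236 CPM at 5 dpf, against 0, 0 and 0.0784 CPM at 1 dpf, a ratio of 9173 with a 95% counting interval of 1646 to 362355. The transcobalamin-type vitamin B12 carrier tcnba had 74.7, 44.5 and 24.6 CPM at 5 dpf and no count at 1 dpf, at least 679-fold higher, and varied 3-fold among the 5 dpf libraries. Of the 10 largest falls, 5 have no name beyond an identifier or a clone name. The gene ENSDARG00000087651 had 0, 0.0627 and 0 CPM at 5 dpf, against 299, 432 and 439.8 CPM at 1 dpf, with a single count at 5 dpf. The gene afp4 (ENSDARG00000041490) had 0.590, 0.627 and 0.384 CPM at 5 dpf, against 621, 523 and 529.8 CPM at 1 dpf (log2 fold change -9.99, SE 0.22, edgeR adjusted p = 1.1e-12). Also in this set were ctslb.4, a second cathepsin gene, 1542-fold lower by the ratio of means, and si:dkey-26g8.5, 1339-fold lower.

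Over the 6 wildtype stages, on a CPM scale normalized over all of these libraries, the genes that fell by 5 dpf had peaked at different times. The gene hmga1a averaged 2343 CPM at the 4-cell stage, 15645 CPM at shield, 21164 CPM at bud, 5661 CPM at 1 dpf and 964 CPM at 5 dpf. PCNA averaged 501 CPM at the 4-cell stage, 1676 CPM at shield, 1314 CPM at bud, 903 CPM at 1 dpf and 171 CPM at 5 dpf. Both were lower at 1 dpf than at shield and bud, and higher at 1 dpf than at the 4-cell stage. By contrast hbbe3, tnnt2c and he1.1 were highest at 1 dpf: hbbe3 averaged 1.91 CPM at bud, 341 CPM at 1 dpf and 0.106 CPM at 5 dpf. For tnnt2c the means were 1.85 CPM at bud, 713 CPM at 1 dpf and 12.1 CPM at 5 dpf. The hatching enzyme he1.1 averaged 53.2 CPM at bud, 525 CPM at 1 dpf and 6.14 CPM at 5 dpf. The shield and bud libraries spread widely for some genes that rise late: actc1b averaged 139 ± 236 CPM at shield (SD, n = 3), against 3412 ± 421 CPM at 1 dpf and 17179 ± 2001 CPM at 5 dpf.

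**Figure D4:**
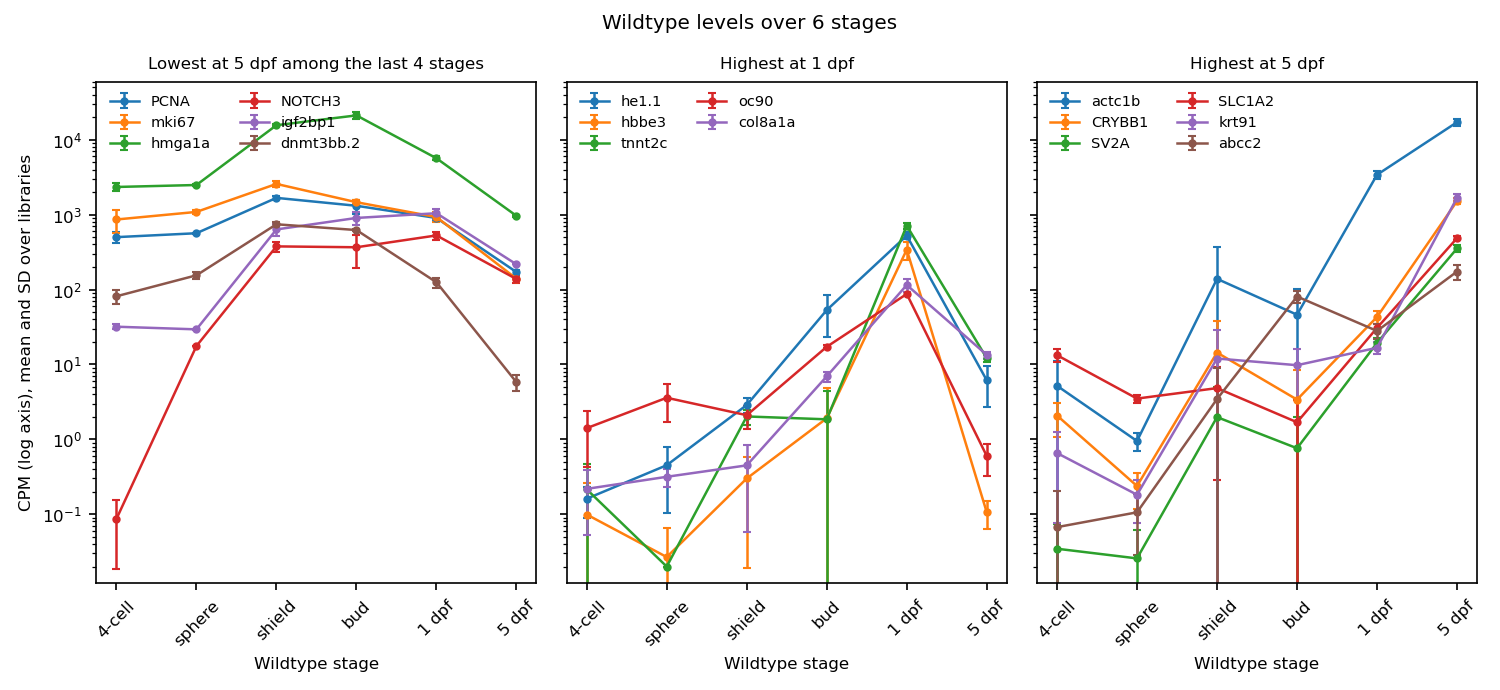
Mean CPM with SD over libraries (log axis) at 6 wildtype stages from 4-cell to 5 dpf, in 3 groups of genes; an SD bar that reaches the lower edge exceeds the mean, and a mean at 0 is drawn at 0.02. Genes in the left panel have lower means at 5 dpf than at 1 dpf (PCNA 903 CPM at 1 dpf and 171 CPM at 5 dpf), those in the middle peak at 1 dpf (hbbe3 341 CPM), and those on the right reach their highest mean at 5 dpf (actc1b 17179 CPM).

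The same interval in MZrlig1 pools asked whether the wildtype change differs without the gene. The difference of the changes was called for 0 of 21283 genes (0%) by edgeR, with 469 genes at an unadjusted p under 0.05, and DESeq2 called 27. The median difference was 0.35 on the log2 scale with all 12 libraries and 0.02 without MZrlig1 1 dpf replicate a, a library that stood apart. Without it 57 of 21653 genes (0.263%) were called, 39 more positive and 18 more negative in MZrlig1. On a CPM scale shared by both genotypes, CELA1 (ENSDARG00000017314) averaged 825 CPM at 5 dpf and 1.35 CPM at 1 dpf in MZrlig1, against 734 CPM and 0.564 CPM in wildtype. PCNA averaged 175 CPM at 5 dpf and 719.8 CPM at 1 dpf in MZrlig1, against 171 CPM and 903 CPM in wildtype.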

How the data were processed

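Poly(A) RNA of wildtype pools at 5 dpf and 1 dpf was analysed, with MZrlig1 pools and earlier wildtype stages for comparison. The deposited tables hold raw read counts per gene and the authors' FPKM for the same genes; the submitters' processing notes name STAR 2.7.10b, Salmon 0.14.1, DESeq2 1.42.1 and build GRCz11, while strand setting and annotation are not given in the sources used here. Of 37241 genes listed, 4721 had no values and 32520 were analysed. Counts were filtered with filterByExpr, scaled by TMM and tested with edgeR 4.0.16 (quasi-likelihood, robust) in R 4.3.3, with Benjamini-Hochberg adjustment; DESeq2 1.42.0 was an alternative. Steps were tested on simulated data. In the simulated counts for edgeR few genes changed, and by less than many here. They cannot show how scaling and calls behave where most genes change. Intervals and floors (3 counts over a stage) cover counting error only. The 32 lists and their members were chosen with earlier results of these data known. Genes named by rule were the 10 largest rises and falls with at least 20 CPM and no overlap, and in each list the 3 most abundant members, the largest rise and fall with at least 5 CPM, and the most abundant member not called; other members named were chosen after their values were seen. Human-style names in capitals are shared by paralogs, and 6143 genes share their name; near-identical copies (hatching enzymes, globins, green opsins, trypsins) may divide reads and are uncertain. Tested alternatives were other scalings, no filter, all wildtype stages in 1 fit, a replicate block, a 2-fold threshold (glmTreat), adjusted p under 0.01, and leaving out each library. Some members are not reported here.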

Additional observations from a re-analysis of the deposited data

Results flagged for a closer look

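Genes whose change over this interval differed between the genotypes are given with MZrlig1 1 dpf replicate a left out of the fit, by edgeR's interaction test adjusted over all genes; with that library in the fit none was called. The difference is the MZrlig1 log2 change minus the wildtype log2 change.

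GGACT differed by 4.70 (SE 0.67, edgeR adjusted p = 0.0075), with 2.75, 3.91 and 2.44 CPM at 5 dpf and 1.07 and 0 CPM at 1 dpf in MZrlig1, against 5.32, 5.38 and 5.19 CPM at 5 dpf and 19.8, 23.1 and 30.7 CPM at 1 dpf in wildtype. HBE1 (ENSDARG00000115405), a globin, differed by 2.99 (edgeR adjusted p = 0.00256), with 71.4, 104 and 65.1 CPM at 5 dpf and 28.6 and 48.9 CPM at 1 dpf in MZrlig1, against 36.3, 29.9 and 35.1 CPM and 127, 155 and 102 CPM in wildtype. Its left-out MZrlig1 1 dpf library held 219 CPM, above every wildtype 1 dpf library, whereas the kept MZrlig1 1 dpf libraries lay below them all. The size of this difference thus depends on leaving that library out. The hatching enzyme he1.1 differed by 2.69 (edgeR adjusted p = 0.0237), with 42.4, 31.2 and 23.4 CPM at 5 dpf and 386 and 485 CPM at 1 dpf in MZrlig1, against 5.58, 3.05 and 9.79 CPM and 576, 531 and 469 CPM in wildtype. For he1.1 the 5 dpf libraries of the genotypes did not overlap.

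The left-out library had 0 CPM of GGACT and 508 CPM of he1.1.

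More positive differences were also found for si:dkey-100n23.4 (2.82, edgeR adjusted p = 0.00256) and F10 (2.7, edgeR adjusted p = 0.00399). More negative ones were found for si:ch211-162h21.1 (-2.84, edgeR adjusted p = 0.0351), tnnt2d (-1.61, edgeR adjusted p = 0.0176), col5a3a (-1.55, edgeR adjusted p = 0.024), smyd2b (-1.37, edgeR adjusted p = 0.0346) and si:ch211-159i8.4 (-1.26, edgeR adjusted p = 0.0351). In the left-out library, col5a3a was at 0, against 101 and 99.1 CPM in the other MZrlig1 1 dpf libraries, and si:ch211-159i8.4 was at 0, against 16.1 and 15 CPM, so that for both the left-out library lies on the other side of the stated direction. F10 was at 0 there, against 6.93 and 2.99 CPM in the others. Of the rest, the left-out library had 5.65 CPM of si:dkey-100n23.4, 54.3 CPM of si:ch211-162h21.1, 27.8 CPM of tnnt2d and 170.2 CPM of smyd2b.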

How the results depend on the processing

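None of the 177 named genes tested reversed in the alternatives run, and 127 kept their direction and side of the threshold in every alternative and 14 changed side without some single library. The median of the skeletal list changed sign, to -0.09 without 5 dpf replicate a, against 0.14 with all libraries; the other 31 lists kept the sign of their median without any 1 library. Tested against a 2-fold change, the called genes numbered 8250, the lower ones 2878, and calls higher made up 65.1% against 51.8%. Under this threshold the members higher were 13 for liver, 9 for kidney, 16 for macrophages, 7 for pigment cells and 9 for the respiratory chain. The members lower were 20 for neural progenitors, 18 for Hox genes, 8 for globins, 6 for epidermis, 3 for endothelium, 1 for ribosomal proteins, 5 for the proteasome and 32 for the spliceosome. With all wildtype stages in 1 fit, 7 epidermal, 6 endothelial and 12 ribosomal genes were lower and 35 respiratory genes were higher; the cause was not tested. At adjusted p under 0.01, 16 ribosomal genes were lower, and leaving out 1 library at a time gave 17 to 78.

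The correlations of deviations for same-lettered libraries were -0.161, -0.332 and -0.018, against -0.143 to 0.259 for different letters. No pairing by letter was seen, but with 3 libraries a stage the check cannot decide whether the letters pair the samples. With the replicate block 26 ribosomal genes were lower, and the interaction still called 0. The interaction was called for 27 genes by DESeq2 and for 0 to 57 genes without 1 library. As shares of summed FPKM, the pancreas list held 0.955% at 5 dpf and 0.00149% at 1 dpf, the lens list 1.73% and 0.0444%, and at 1 dpf the photoreceptor list held 0.0266% and the muscle list 2.06%. The plan to look for promoter motifs was not run, since no promoter sequences were used here. With 3 pools a stage, small changes near the threshold depend on single libraries, and genes with few counts have wide counting intervals.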

Other observations

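Some genes outside the lists were looked at after their values were seen, so they are given as values with no test. Of the immediate early genes, known for fast induction after stimulation, egr1 had 305, 281 and 294 CPM at 5 dpf, against 6.73, 6.59 and 6.58 CPM at 1 dpf. FOS had 146, 129.8 and 138 CPM at 5 dpf, against 1.44, 2.91 and 3.06 CPM at 1 dpf. BTG2 had 174, 158 and 179 CPM at 5 dpf and 171, 218 and 245 CPM at 1 dpf, with overlap.

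In muscle, the embryonic acetylcholine receptor subunit CHRNG had 6.12, 7.15 and 5.22 CPM at 5 dpf, against 93.8, 108 and 111 CPM at 1 dpf. The adult-type subunit CHRNE had 50.4, 38.5 and 47.5 CPM at 5 dpf and 33.4, 34.9 and 43.0 CPM at 1 dpf, with overlap. Of the other subunits, CHRNA1 averaged 51.6 CPM at 5 dpf and 76.8 CPM at 1 dpf. The means at 5 dpf and 1 dpf were 27.9 and 45.3 CPM for CHRND, and 24.1 and 28.1 CPM for CHRNB1. The fusion gene MYMK had 4.72, 3.95 and 3.45 CPM at 5 dpf, against 46.3, 49.5 and 53.8 CPM at 1 dpf. The myosin chaperone UNC45B had 28.5, 25.8 and 28.2 CPM at 5 dpf, against 299.9, 313 and 308 CPM at 1 dpf. Of glucose metabolism, PCK1, an enzyme of glucose synthesis, had 242, 257 and 190.4 CPM at 5 dpf, against 7.97, 6.66 and 6.35 CPM at 1 dpf.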
